A study of Homo sapiens with 2 samples.

Results

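RFX6 normally acts in the endocrine pancreas, and the genes of islet development and beta-cell function were therefore looked up among the RFX6 peaks of a liver cancer cell line. The set was a list of 37 genes, defined by their known role in islets and drawn up with earlier results of these data known, out of 20037 protein-coding genes. All 37 were found in the gene table. They comprised 14 transcription factors of islet development, 8 hormone genes, 8 genes of glucose handling and ion channels, 5 genes of the secretory granule and 2 incretin receptors. The peaks came from the human hepatocellular carcinoma (HCC) line MHCC-97H, which carried a plasmid for HA-tagged RFX6, and anti-HA antibody was used for chromatin immunoprecipitation followed by sequencing (ChIP-seq). The series has 2 libraries, 1 HA-RFX6 ChIP and 1 input of the same cell line, each without a replicate. No precipitation from cells without the tagged protein was analysed here, and a peak list holds no expression values, so the cell type was not checked against marker genes.

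The deposited peak list gave 5019 distinct intervals on the nuclear chromosomes, with a median width of 272 bp and whole-number scores from 13 to 170 (median 30). The meaning of this score is not given, and it served only to rank intervals. The read depth is unknown. The labels name the build GRCh37, whereas the coordinates fitted GRCh38.p14. On that build, 60.8% of interval midpoints fell no farther than 1 kb from the end of a coding gene, compared with 7.65% and 8.11% after a shift of 20 kb down and up. All positions below are on GRCh38.

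RFX6 belongs to the RFX family of winged-helix transcription factors, which bind the X-box, an inverted repeat with a pair of short arms. In the developing pancreas, NEUROG3 switches on the endocrine programme, and RFX6 acts downstream of it in the cells that become islet cells. In mature beta cells, glucose enters through a transporter, its metabolism closes the ATP-sensitive potassium channel encoded by KCNJ11 and ABCC8, and the calcium entry that follows through voltage-gated channels releases insulin. RFX6 is known in beta cells for maintaining genes of this secretion pathway, the calcium channel genes CACNA1A, CACNA1C and CACNA1D and the channel subunit gene CACNB2 among them.

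Few islet genes held an RFX6 interval, and none held one at a gene end. An interval lay in the gene or within 1 kb of either end for 2 of the 37 genes, IAPP and CACNA1C (5.41%, 95% Wilson interval 1.5% to 17.7%). By the same rule, 19.6% of all protein-coding genes had an interval (3935 of 20037). Within 1 kb of a gene end, 0 of the 37 genes had an interval, for which the Wilson interval reached 9.41%, compared with 15.9% of all protein-coding genes. Around the start sites of the 29 genes with an entry in the promoter table, 0 had an interval within 1 kb, compared with 15.5% of the 15843 protein-coding genes with such an entry. Except for GLIS3, PPY, CHGA and CACNA1C, these start sites are themselves gene ends. This count therefore largely repeats the count at gene ends and is not a separate result. These Wilson intervals cover the counting of genes only, and no test was made, since 1 peak list has no replicate error and the genes were not drawn at random. A gene with too few reads to reach the calling threshold cannot be told apart from a gene without RFX6.

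The islet genes were shorter than other genes, with a median length of 11673 bp against 24115 bp, and longer genes offer more room for an interval. The 16 genes under 10 kb had no interval, whereas 14% of all protein-coding genes of this length had one. Of the 14 genes between 10 and 100 kb, 1 had an interval (22% of all such genes). Of the 7 genes over 100 kb, 1 had an interval (21.6% of all such genes). Applied to the 37 genes, these shares would give 6.83 genes with an interval and 5.58 with one at a gene end, and the shares of the chromosomes that carry them would give 7.90 and 6.38. The counts seen, 2 and 0, were lower than either figure.

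**Figure D1:**
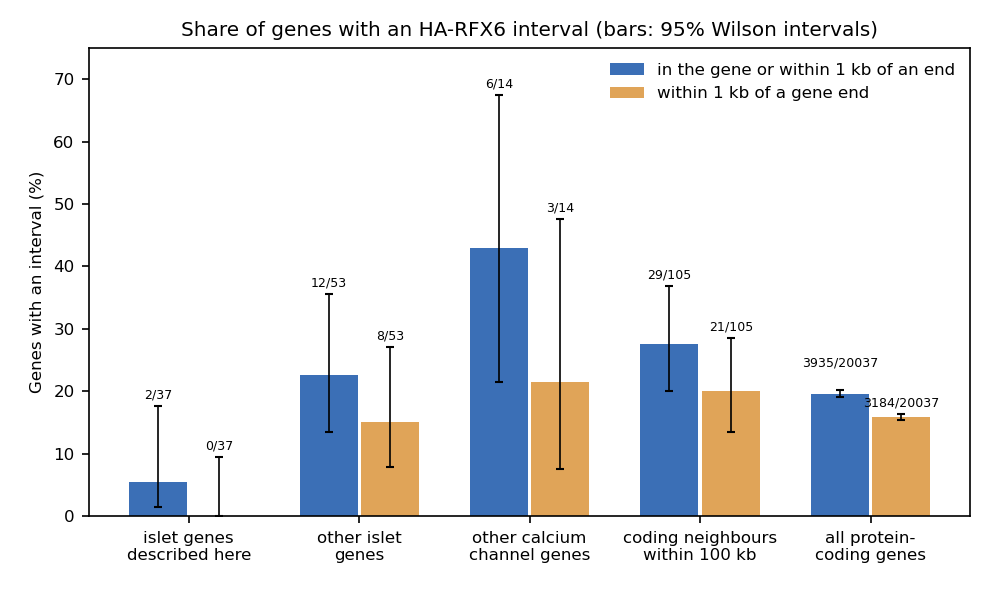
Share of genes with an HA-RFX6 interval, in percent, for the islet genes described here, 2 other fixed lists, the protein-coding neighbours of the islet genes and all protein-coding genes. Blue bars count intervals in the gene or within 1 kb of an end, orange bars count intervals within 1 kb of an end, lines are 95% Wilson intervals over genes, and the islet genes had 2 of 37 and 0 of 37.

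The interval at CACNA1C, the gene of the pore-forming subunit of an L-type calcium channel, lay at the start of another gene. It covered 562 bp of chromosome 12, between positions 2004090 and 2004651, and was listed on 2 lines with scores of 27 and 25, below the median of the list (percentile 34.0). It lay 48336 bp upstream of the CACNA1C start site in the promoter table. It was still inside the annotated gene, which spans 727171 bp, at 33310 bp from its low-coordinate end. The start site of DCP1B, which encodes an mRNA decapping factor and runs on the opposite strand, was inside the interval. The interval therefore counted for CACNA1C through the overlap of the 2 genes. The bases just upstream of the DCP1B start that lay in the interval are shown, because they hold a facing pair of RFX arms. They are from RefSeq, GRCh38.p14, chr12:2004458-2004651, minus strand, 5′ to 3′, with arms in capitals.
DCP1B upstream: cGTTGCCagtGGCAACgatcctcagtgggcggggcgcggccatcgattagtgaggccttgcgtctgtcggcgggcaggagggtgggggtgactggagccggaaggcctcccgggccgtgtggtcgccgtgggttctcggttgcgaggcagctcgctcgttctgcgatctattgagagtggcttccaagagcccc

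The arm searched was GTTNCC on either strand, and a facing pair was GTTNCC followed after at most 3 bases by its reverse complement, as in the X-box. The DCP1B pair spans 15 bases, has 3 bases between the arms and lies 179 to 193 bp upstream of the start. Such a pair was found in the 250 bases before the start of 105 of the 15843 protein-coding genes with an entry (0.663%). It was found for 15 of the 2463 genes with an interval within 1 kb of the start (0.609%) and for 90 of the 13380 genes without one (0.673%), so that the pair was about as frequent with as without an interval. A match describes the letters of this window and does not show binding. The DCP1B sequence was chosen for display after its letters were seen.

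IAPP encodes amylin, a peptide released together with insulin. Its interval was 1047 bp wide, at positions 21362538 to 21363584 of chromosome 12, and scored 33 (percentile 56.5). It lay in the body of IAPP, 7579 bp downstream of the start site and 16396 bp from the other end. The same bases also belong to SLCO1A2, a gene of an organic anion transporter on the opposite strand that spans IAPP, with its start site 40067 bp away. No other protein-coding gene end was closer to the interval than the IAPP start. Neither of the intervals at islet genes was thus within 1 kb of an islet gene start.

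**Figure D2:**
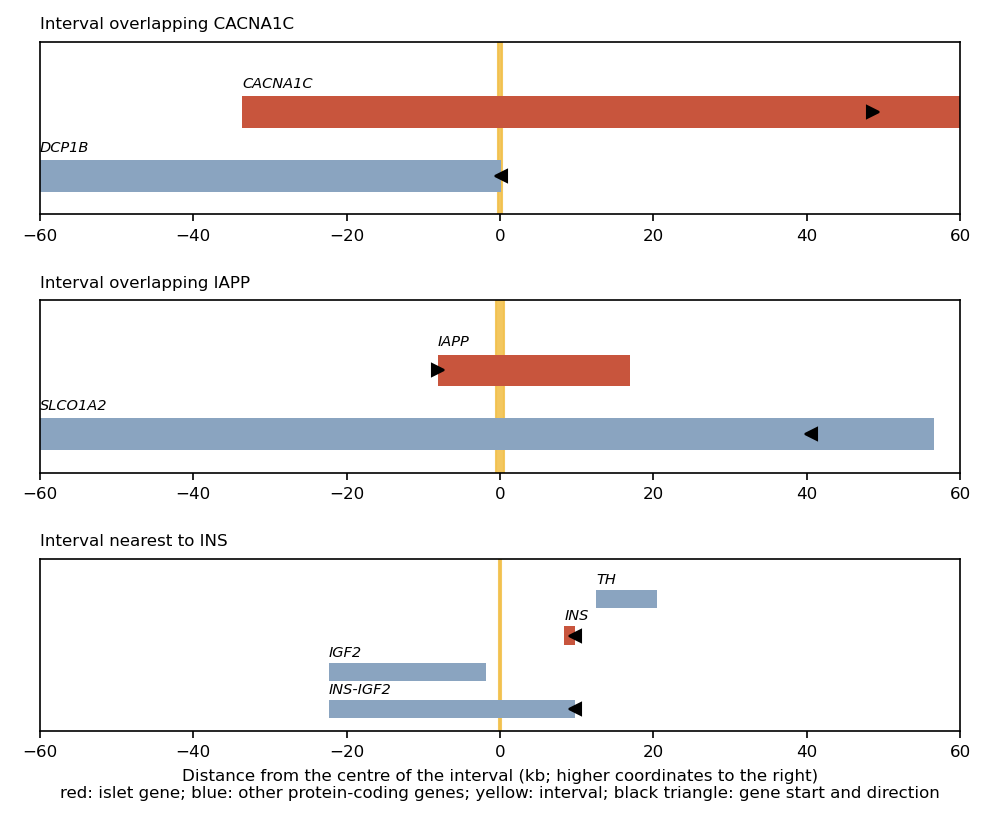
Maps of the intervals overlapping CACNA1C and IAPP and of the interval nearest to INS, drawn as distance in kb from the centre of the interval (yellow), with islet genes in red, other protein-coding genes in blue and start sites from the promoter table as black triangles. The CACNA1C interval covers the DCP1B start, the IAPP interval lies inside IAPP and SLCO1A2, and the INS interval lies 8.23 kb from INS inside INS-IGF2.

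None of the 14 transcription factor genes had an interval in the gene or within 1 kb, for which the Wilson interval reached 21.5% and so included the 19.6% of all protein-coding genes. The distance from the gene to the nearest interval had a median of 227 kb in this group. NEUROG3, the factor that starts endocrine differentiation, was 119.9 kb from an interval at the start of TSPAN15 (chromosome 10, 69451327 to 69451564), whose score of 15 was near the lowest of the list. PDX1, the master factor of pancreas and beta cells, was 1924 kb from the nearest interval, which lay 164 bp from the start of UBL3. NEUROD1, a direct target of NEUROG3 that maintains endocrine cells, was 4275 kb from an interval at the start of AGPS. These 3 genes of the core programme thus had no interval within 100 kb, which also held for 52.1% of all protein-coding genes.

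NKX2-2 and NKX6-1, homeobox factors of beta-cell identity, were 3829 kb and 13761 kb from the nearest interval, and the NKX6-1 value was the largest of the 37. NKX2-2 shared its nearest interval, at the RRBP1 start on chromosome 20, with INSM1, a zinc finger factor of endocrine cells, which was 2686 kb from it. ISL1, a LIM-homeobox factor of islet cells, was 1595 kb from an interval at ITGA2. PAX6, required for hormone gene expression, was 279 kb from an interval at the start of ELP4. Its promoter had no RFX arm of the kind described above, which also held for NKX2-2 and NKX6-1, whereas ISL1 had 1. Altogether, 9 of the 37 genes (24.3%) had no interval within 1 Mb, compared with 16.3% of all protein-coding genes. Of these 9, 6 were transcription factors, which make up 14 of the 37 genes.

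The closest interval among the transcription factors was at PAX4, a paired-box factor of beta-cell fate. It lay 21.6 kb from PAX4 at the start of ARF5, between 127588250 and 127588707 on chromosome 7, and scored 63 (percentile 95). MNX1, a homeobox factor of the early pancreas, was 54.5 kb from an interval at NOM1 (score 27). MYT1, a zinc finger factor of endocrine progenitors, was 54.4 kb from an interval with the lowest score of the list, 13, which overlapped no annotated gene. MAFA, an activator of the insulin gene in mature beta cells, was 58.9 kb from an interval in RHPN1 (score 25). GLIS3, needed for beta-cell formation and INS expression, was 172 kb from an interval at PLPP6, and FEV, a factor of endocrine precursors, was 175 kb from one at NHEJ1. In each case with a named gene other than RHPN1, the interval was within 1 kb of an end of that neighbour.

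**Figure D3:**
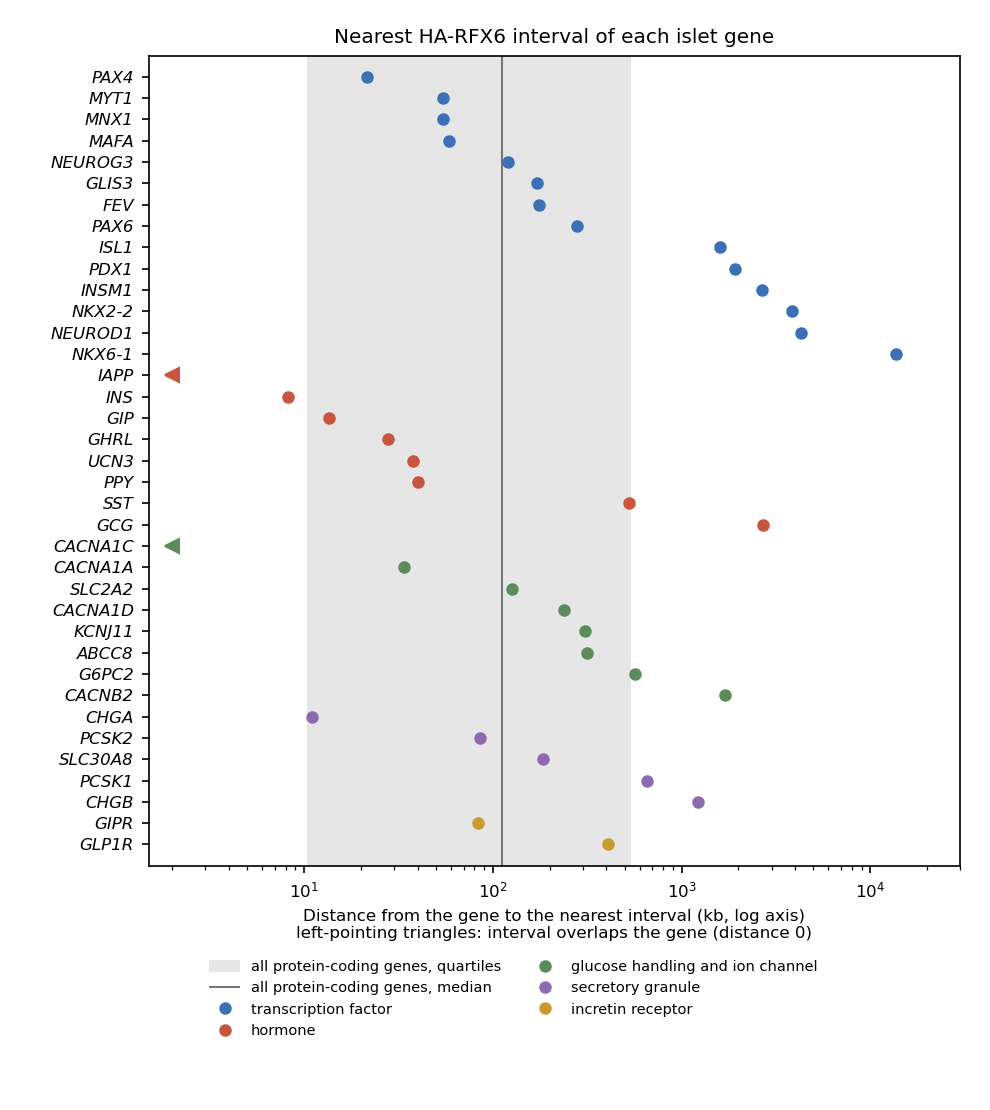
Distance in kb, on a log axis, from each of the 37 islet genes to its nearest HA-RFX6 interval, coloured by role, with triangles for IAPP and CACNA1C, whose intervals overlap the gene. The grey band and line are the quartiles (10.5 and 533 kb) and the median (112 kb) of all protein-coding genes, and the median of the islet genes was 175 kb.

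To show promoters of islet genes without a peak, the upstream bases of NEUROG3 and INS are given, both from RefSeq (GRCh38.p14), minus strand, 5′ to 3′, and ending 1 base before the start site. They lie at chr10:69573423-69573672 and chr11:2161210-2161459. Arms would be in capitals, and neither sequence has one.
NEUROG3 upstream: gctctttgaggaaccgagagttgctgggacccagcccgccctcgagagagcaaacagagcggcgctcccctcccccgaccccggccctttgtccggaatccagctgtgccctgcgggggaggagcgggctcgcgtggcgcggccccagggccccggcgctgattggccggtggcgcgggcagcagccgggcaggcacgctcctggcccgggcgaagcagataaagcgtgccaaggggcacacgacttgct
INS upstream: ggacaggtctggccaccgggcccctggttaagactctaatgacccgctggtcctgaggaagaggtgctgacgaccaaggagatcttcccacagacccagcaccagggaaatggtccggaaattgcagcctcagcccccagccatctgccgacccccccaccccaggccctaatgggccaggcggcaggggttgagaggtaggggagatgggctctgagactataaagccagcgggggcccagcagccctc

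The NEUROG3 sequence had a GC content of 72.0% and 25 CpG dinucleotides, and the INS sequence 64.0% and 7. Across the 29 islet genes with an entry, 10 (34.5%) had an arm in the 250 bases before the start, compared with 40.3% of all protein-coding genes, and 0 had a facing pair. PCSK2 had 2 arms, and CACNB2, CHGA, GCG, GHRL, GIP, GIPR, IAPP, ISL1 and PPY had 1 each. No match says only that these letters are absent from this window.

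Intervals at gene starts were more frequent where the promoter was rich in CpG dinucleotides, and many islet genes have such promoters. Genes with an interval at the start (within 1 kb) had a median of 24 CpG in the 250 bases, with quartiles of 18 and 31, whereas genes without one had a median of 15. Of the 7808 protein-coding genes with at least 18 CpG, 24.4% had an interval at the start, compared with 6.94% of those with fewer. The islet genes had a median of 21, and 15 of the 29 had at least 18. These 15 included 9 of the 11 transcription factors with an entry, among them MNX1 with 36 CpG, FEV with 29 and ISL1 with 27, and the channel genes CACNA1C with 51 and CACNA1D with 41. None of the 15 had an interval at the start, which already follows from the count of 0 over all 29 and is not a further result. The 7 hormone genes with an entry had a median of 6, and none reached 18. The bound of 18 is itself a quartile of these data, and whether the promoters were open in MHCC-97H cells was not tested.

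The hormone genes had a median distance of 32.9 kb, the shortest of the groups, compared with 112 kb for all protein-coding genes. Of the 8, 6 had an interval within 100 kb, compared with 48.0% of protein-coding genes on chromosomes with an interval. With 8 genes, this difference was not tested. INS, which encodes insulin, was the closest of the genes without an interval, at 8.23 kb. That interval spanned 2151261 to 2151551 of chromosome 11 and scored 18 (percentile 13.2). It lay 9658 bp from the INS start site, inside the read-through gene INS-IGF2, and 1695 bp from an end of IGF2. GIP, the gene of an incretin of the gut, was 13.6 kb from one of the highest intervals of the whole list, between 48944582 and 48944941 on chromosome 17, whose score of 102 was exceeded by 7 intervals. This interval covered the start of SNF8, which encodes a subunit of the endosomal sorting machinery.

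The bases upstream of SNF8 that lay in this interval are given because its score was the highest among the nearest intervals of the islet genes, and they were chosen after the score was seen. They are from RefSeq (GRCh38.p14), chr17:48944843-48944941, minus strand, 5′ to 3′, and hold no arm.
SNF8 upstream: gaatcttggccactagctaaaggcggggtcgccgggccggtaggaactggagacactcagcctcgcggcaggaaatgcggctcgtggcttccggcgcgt

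GHRL, the ghrelin gene, was 28.0 kb from an interval at the start of SEC13 (score 25). UCN3, a peptide of mature beta cells, was 37.8 kb from an interval at an end of NET1 (score 34). PPY, which encodes pancreatic polypeptide, was 40.3 kb from an interval in the body of MPP2 (score 32). GCG and SST, the genes of glucagon and somatostatin, were farther away, at 2689 kb and 529 kb. The nearest interval of GCG was at COBLL1 with a score of 59, and that of SST was at RPL39L with a score of 22.

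Among the glucose handling and ion channel genes, the median distance was 273 kb. SLC2A2, the gene of the glucose transporter GLUT2, which the liver also uses, was 126 kb from an interval near RPL22L1. G6PC2, an islet glucose-6-phosphatase gene, was 569.7 kb from an interval at BBS5. ABCC8 and KCNJ11, which lie side by side on chromosome 11, were 315 kb and 308 kb from the same interval, 123 bp from the start of the ribosomal protein gene RPS13. The potassium channel pair thus gave 1 distance and not 2 independent ones.

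The other calcium channel members also lacked an interval. CACNA1A, a P/Q-type channel gene of 300038 bp, was 33.9 kb from an interval of score 33 that overlapped no annotated gene. CACNA1D, an L-type channel gene of 319123 bp, was 239 kb from an interval at the start of TKT, and CACNB2, a gene of an auxiliary subunit, was 1703 kb from one at the start of PTER. When the remaining calcium channel genes were counted from a fixed list, 6 of 14 (42.9%, Wilson interval 21.4% to 67.4%) had an interval in the gene or within 1 kb, compared with 19.6% of all protein-coding genes. Within 1 kb of an end, 3 had one (21.4%, 7.57% to 47.6%), compared with 15.9%. The 3 were CACNA1G with a score of 45, CACNB1 with 27, and CACNB3 with 26 and 43 on separate intervals at its end. CACNA1H, CACNA1I and CACNA2D2 had intervals in the gene body alone.

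None of the 5 secretory granule genes had an interval. The Wilson interval reached 43.4% and so included the 19.6% of all protein-coding genes. CHGA, the chromogranin A gene, was the closest, 11 kb from an interval in ITPK1 (chromosome 14, 92946304 to 92946702, score 42). PCSK1 and PCSK2, which encode the prohormone convertases, were 659 kb and 85.4 kb away, the latter from an interval at the start of the actin regulator gene DSTN. SLC30A8, the zinc transporter gene of the insulin granule, was 184 kb from an interval at EIF3H, and CHGB, the chromogranin B gene, was 1224 kb from one near PRNP. The 2 incretin receptor genes had none either, with a Wilson interval that reached 65.8% and also included this share. GIPR was 83.9 kb from an interval near the start of OPA3, and GLP1R was 409 kb from one at BTBD9.

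Whether the islet genes lie in regions without peaks was then examined. Of the 37 genes, 15 (40.5%) had an interval within 100 kb, compared with 48.0% of protein-coding genes on chromosomes with an interval, and 28 (75.7%) had one within 1 Mb, compared with 83.9%. The difference was wider at short range, as 6 (16.2%) were within 25 kb, compared with 31.2%. These counts include genes overlapped by an interval, 2 of the 37 and 3330 of 19974. The short-range difference is therefore not separate from the counts of genes with an interval. Around the 37 genes, 105 other protein-coding genes lay within 100 kb. Of these neighbours, 29 (27.6%, Wilson interval 20% to 36.8%) had an interval, compared with 19.6% of all protein-coding genes, and 21 (20%, 13.5% to 28.6%) had one within 1 kb of an end, compared with 15.9%. The 15.9% was inside the Wilson interval of the neighbours, whereas the 19.6% was just below it, and no test was made. The neighbours with an interval include DCP1B and SLCO1A2, through the intervals that overlap CACNA1C and IAPP, and INS-IGF2, which spans INS. Neighbours and islet genes are thus not fully separate. Of the 37 islet genes, 18 had at least 1 neighbour with an interval. The like share over all protein-coding genes was not computed, so this count cannot be called high or low. GIPR had 10 neighbours, of which 4 had an interval (DMPK, DMWD, OPA3 and SIX5), and GIP had 5, of which 3 did (IGF2BP1, SNF8 and UBE2Z).

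**Figure D4:**
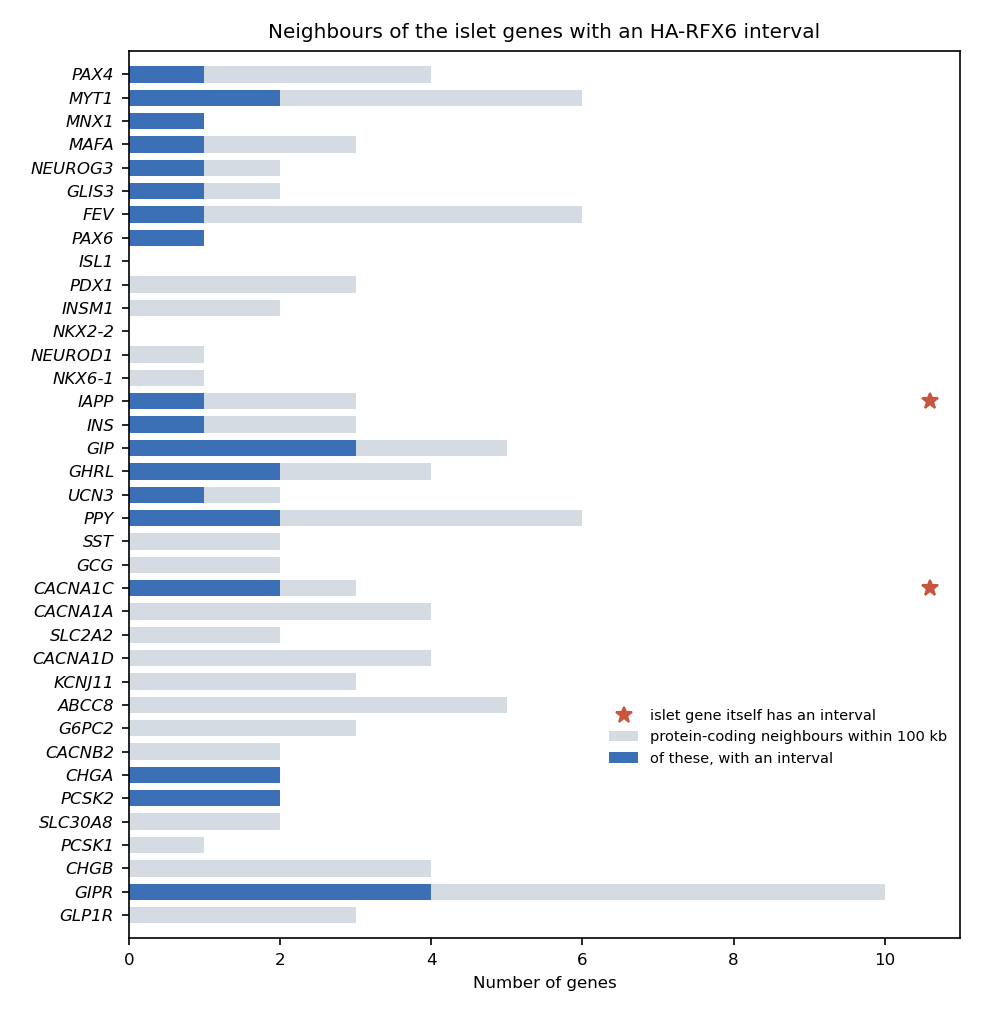
Number of other protein-coding genes within 100 kb of each islet gene (grey) and how many of them had an HA-RFX6 interval in the gene or within 1 kb (blue), with stars at IAPP and CACNA1C, the islet genes with an interval of their own. In all, 29 of 105 distinct neighbours had an interval, and ISL1 and NKX2-2 had no neighbour within 100 kb.

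The nearest intervals of the islet genes were mostly at a gene end. The 37 genes had 35 distinct nearest intervals, and 28 of these (80.0%) were within 1 kb of a protein-coding gene end, compared with 62.6% of all 5019 intervals. As no islet gene had an interval at its own end, these ends all belonged to other genes. The 35 were picked by nearness to a gene and the 5019 were not, so the shares are not like with like. The median score of the 35 was 27, against 30 in the whole list. For 23 islet genes without an interval, the nearest interval was within 1 kb of the start site of another gene in the promoter table, 21 such genes in all. The 250 bases before these 21 starts held an arm in 12 and a facing pair in 0. Among all 2463 genes with an interval within 1 kb of the start, 39.1% had an arm and 0.609% a facing pair. With 21 starts, the difference was not tested.

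Other genes of islet biology were counted from a second fixed list of 53. Of these, 12 (22.6%, Wilson interval 13.5% to 35.5%) had an interval in the gene or within 1 kb, and 8 (15.1%, 7.85% to 27.1%) had one within 1 kb of an end. These shares were near the 19.6% and 15.9% of all protein-coding genes. Among its transcription factors, GATA6, a factor of early pancreas and liver, had an interval covering its start with a score of 43. RFX3, the RFX family member that acts with RFX6 in islets, had an interval 81 bp from its start with a score of 22. Further genes with an interval at an end included PC, VGF, CPE and STX1A, and several of the 53 are used by many cell types. At RFX6 itself, the nearest interval was 506 kb away. The difference between the 2 lists was not tested.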

How the data were processed

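ChIP-seq was performed by the authors on 1 HA-RFX6 ChIP library and 1 input library of MHCC-97H cells, and samples were grouped by their titles. Peaks were called by the authors with MACS (version 2.1.0.2 in the submitters' notes). Whether the input served as control and which aligner was used is not given in the sources used here, and the input was not analysed here. The deposited file holds positions and a score per peak, without a header. One line with split digits was rejoined, lines with the same position were counted once with their highest score, 3 mitochondrial intervals were left out, and starts were made 1-based. The depth is unknown.

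Gene extents came from a RefSeq table of GRCh38.p14, start sites and sequences from its promoter table, and both were matched by symbol or gene ID. An interval counted when it overlapped a window by at least 1 bp. Gene ends were used as planned, and start sites were an alternative chosen after seeing the data. The genes and lists were chosen with earlier results of these data known. All 37 genes are named, and the other lists by their intervals, of which some are not reported here. Shares have 95% Wilson intervals. Counting was tested on planted intervals with known answers. Alternatives were scores of at least 30 (the median) or 20, midpoints, flanks of 2 and 5 kb, merging of intervals closer than 1 kb, the gene body alone and the nearest gene end. Python 3.11.15 with numpy 2.4.6, pandas 2.3.3, scipy 1.17.1 and matplotlib 3.10.9 was used.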

Additional observations from a re-analysis of the deposited data

How the results depend on the processing

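The count of 0 islet genes with an interval at a gene end was the same under all 7 alternatives, namely both score limits, midpoints, flanks of 2 and 5 kb, merging and start sites. Score limits and midpoints only narrow the main rule, so they could not give more than 0. Start sites are gene ends for all islet genes with an entry except GLIS3, PPY, CHGA and CACNA1C, so they were hardly a separate check. Of all protein-coding genes, 9.78% had an interval at an end for scores of at least 30, and 14.1% for scores of at least 20. With flanks of 2 and 5 kb, 17.4% and 19.9% had one. The count of 2 genes with an interval was 1 for scores of at least 30, as CACNA1C dropped out and IAPP was kept, and 2 under the other 7. By the nearest gene end, however, the 2 genes were IAPP and CACNA1A. Over all protein-coding genes, the count of 3935 was 2425 for scores of at least 30 (12.1% of genes) and 2463 at start sites. The median distance of 175 kb to the nearest interval was 638 kb for scores of at least 30, fewer intervals being used by construction. No paired analysis was possible because the peak list has a single ChIP library behind it, and for the same reason no replicate could be left out. Depth, input signal and open chromatin were not analysed, and sequence was available for promoters alone.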

Other observations

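Among the other islet and calcium channel genes, some held intervals in the gene body, away from the ends. KCNQ1, a potassium channel gene on chromosome 11, had 4 intervals with scores of 54, 18, 17 and 13, of which the closest to a gene end was 53986 bp inside. TRPM5, the neighbouring cation channel gene, had 1 interval with a score of 37. CACNA1H had 4 intervals with scores from 17 to 32, and CACNA2D2 had 5 with scores from 13 to 28. PAM, which encodes the enzyme that amidates peptide hormones, had 1 interval with a score of 17, lying 110643 bp from its start. SYT7, a calcium sensor of exocytosis, had 1 interval with a score of 34, lying 6920 bp from an end.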
